A study of Mus musculus with 3 samples.

Results

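The 9 genes described here carry B lymphoid commitment: Ebf1, Pax5, Rag1, Rag2, Dntt, Igll1, Vpreb1, Cd79a and Cd79b. They were taken out of 21887 protein-coding genes of the RefSeq annotation by name, for what they do in B cell development. No measured value entered the rule, but earlier results of these data were known when the genes were chosen. Signal of the tagged transcription factor Bcl11a was looked for inside each gene and up to 100 kb beyond either of its outer ends. A peak was given to a gene when that gene's end was the nearest end of any protein-coding gene. Peaks of the 3 libraries that overlapped by at least 1 bp were joined, and a joined region with a peak of every library is called reproducible. By this rule 11 of the 22987 reproducible regions of the series belonged to the 9 genes.

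The material was sorted LSK cells (lineage-negative, Sca-1-positive, Kit-positive) of mouse bone marrow, which include blood stem cells and multipotent progenitors that have not yet fixed a lineage. Per the design text, the mice carried a 3xFlag tag at the N-terminus of the Bcl11a protein, made by knock-in at the gene, whereas the genotype label of every library reads wildtype. CUT&Tag brings a transposase to the tagged protein through an antibody, so that nearby DNA is cut out and sequenced. The 3 libraries form a single group, with no age, sex, treatment or number of mice in the labels, and no untagged control library was analysed here. SDs below therefore measure the spread between 3 libraries, which may be technical, and signal of the tagged protein cannot be told apart from open chromatin that the transposase cuts without it. A weak region may also be a strong one in few of the sorted cells, and these cannot be told apart in bulk libraries.

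B cell fate is set in steps. E2A proteins and interleukin 7 signals switch on Ebf1, a transcription factor that opens the B cell programme, and Ebf1 in turn activates Pax5, the factor that closes off other fates. The recombinase made of Rag1 and Rag2 cuts the immunoglobulin genes, and the polymerase encoded by Dntt (terminal deoxynucleotidyl transferase) adds random bases at the joints. The new heavy chain is tested on the cell surface with a surrogate light chain, made of the products of Igll1 (lambda5) and Vpreb1, and with the signalling chains Cd79a and Cd79b. Bcl11a, a zinc finger repressor, is needed for B cell development in mice. Dntt and the Rag genes are among the earliest lymphoid genes to be switched on in multipotent progenitors, and the others are mainly genes of committed B lineage cells.

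A promoter sequence was found in the RefSeq promoter table (GRCm38.p6, which mm10 is built on) for 8 of the 9 members, Ebf1 with 2, and Cd79b had no entry. The 250 bases before the annotated start of 4 members are printed here because they span the outcomes seen at starts: Igll1 and Cd79a had a reproducible region over the start, Vpreb1 had a peak of library 1 alone, and Rag1 had no peak of any library. They are, from RefSeq, Igll1 at chr16:16863986-16864235 (minus strand), Cd79a at chr7:24897247-24897496 (plus strand), Vpreb1 at chr16:16869256-16869505 (minus strand) and Rag1 at chr2:101649533-101649782 (minus strand). Each runs 5′ to 3′ along its gene and ends at the base before the start. Capitals mark matches, on either strand, to TGACCA (bound by BCL11A), TGTGGT (RUNX factors), CAGNTG (E proteins), CCCNNGGG (the core of the EBF site) and GGAAGT (ETS factors).
Igll1: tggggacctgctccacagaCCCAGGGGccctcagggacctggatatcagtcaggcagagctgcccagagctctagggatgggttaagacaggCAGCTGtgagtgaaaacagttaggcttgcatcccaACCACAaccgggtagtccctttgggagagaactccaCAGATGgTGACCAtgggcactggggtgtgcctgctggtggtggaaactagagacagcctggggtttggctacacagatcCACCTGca
Cd79a: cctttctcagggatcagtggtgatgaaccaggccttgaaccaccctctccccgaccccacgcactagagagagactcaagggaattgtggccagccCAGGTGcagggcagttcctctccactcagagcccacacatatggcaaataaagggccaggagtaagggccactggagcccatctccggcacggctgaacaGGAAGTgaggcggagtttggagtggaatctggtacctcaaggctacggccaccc
Vpreb1: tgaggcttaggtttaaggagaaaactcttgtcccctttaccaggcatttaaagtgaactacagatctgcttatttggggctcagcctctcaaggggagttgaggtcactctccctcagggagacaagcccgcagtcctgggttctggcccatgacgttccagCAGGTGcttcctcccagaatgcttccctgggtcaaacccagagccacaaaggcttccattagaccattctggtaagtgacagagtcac
Rag1: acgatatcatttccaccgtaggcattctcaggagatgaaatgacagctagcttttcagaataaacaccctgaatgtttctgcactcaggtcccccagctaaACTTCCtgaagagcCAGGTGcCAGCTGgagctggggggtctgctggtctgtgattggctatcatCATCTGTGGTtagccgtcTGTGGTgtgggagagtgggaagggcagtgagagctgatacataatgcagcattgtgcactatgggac

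Igll1 was the member whose start combined all but the ETS motif with signal of every library. Its stretch held 6 matches: the EBF core with its first base 231 bases upstream of the start, CAGCTG at 158, ACCACA at 123, CAGATG at 87, TGACCA at 80 and CACCTG at 8. In Cd79a the matches were CAGGTG, 154 bases upstream, and GGAAGT, 54 upstream. Vpreb1 held CAGGTG alone, 88 bases upstream. The Rag1 stretch also held 6 matches without a peak, among them CATCTG at 85 and TGTGGT at 81, which share bases. Over the whole promoter entries, which add 50 bases after the start, TGACCA stood in 1 of 9 member promoters (Igll1), against 13.6% of 32851 promoters of all genes. TGTGGT stood in 3 of 9 against 16.8%, CAGNTG in 5 of 9 against 51.4%, CCCNNGGG in 1 of 9 against 13.7%, and GGAAGT in 3 of 9 against 23.8%. A match is a run of letters and not a measured binding site. The Igll1 and Cd79a promoter entries held 57% and 58.3% G or C and 2 and 8 CpG dinucleotides. Across all genes, promoters in reproducible regions had a median of 63% G or C and 23 CpG, and the other promoters 49% and 4.

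The libraries held 38731, 36459 and 43462 peaks on the autosomes and sex chromosomes, in libraries 1, 2 and 3. Their median fold enrichment was 5.16, 5.25 and 4.69. Fold enrichment is the height of a peak's summit over the peak caller's local background, with 1 added to each. The added 1 lowers the ratio most where the background is low. Summit pileups had medians of 14, 18 and 20 fragments. The lowest background in a library was 1.07, 1.41 and 1.95 fragments per base, so that equal enrichment rests on fewer fragments in library 1 than in library 3. No expression was measured, so the label LSK could be set only against peaks at marker genes. The stem and progenitor markers Kit, Cd34, Flt3 and Procr had a reproducible region at an end, while Ly6a, which encodes Sca-1, and Cd48 had no reproducible region. Of mature B cell markers, Cd22 and Cr2 had a region but none at an end, and Ms4a1 had no region. The T cell markers Cd3e, Cd4 and Cd8a had no reproducible region, but the T cell receptor genes Cd3d and Lat had one at an end. By count, 6 of 8 stem and progenitor markers, 3 of 4 mature B, 2 of 3 myeloid and 2 of 3 erythroid markers had a region. The share over all protein-coding genes was 53.6%, so peaks at markers do not settle the cell type.

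Reproducible Bcl11a signal lay at 5 of the 9 genes, and mostly away from their ends. Pax5 and Dntt had 3 regions each, Ebf1 and Igll1 2 each and Cd79a 1, whereas Rag1, Rag2, Vpreb1 and Cd79b had none. Having at least 1 region is common: 53.6% of all protein-coding genes had 1 or more, so 5 of 9 is near that background. An end was occupied, meaning that a reproducible region came within 1 kb of it, in 2 of 9 members, Igll1 and Cd79a, against 45.2% of protein-coding genes. Counted over promoter entries, 2 of the 9 member promoters were overlapped by a reproducible region, against 31.4% of all. The summit lay within 1 kb of an end in only 2 of the 11 member regions and farther in 9, where 38.5% of all regions given to protein-coding genes lay within 1 kb. Of the 11, 6 had the summit inside a gene and 5 outside, at most 6806 bp beyond an end.

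**Figure D1:**
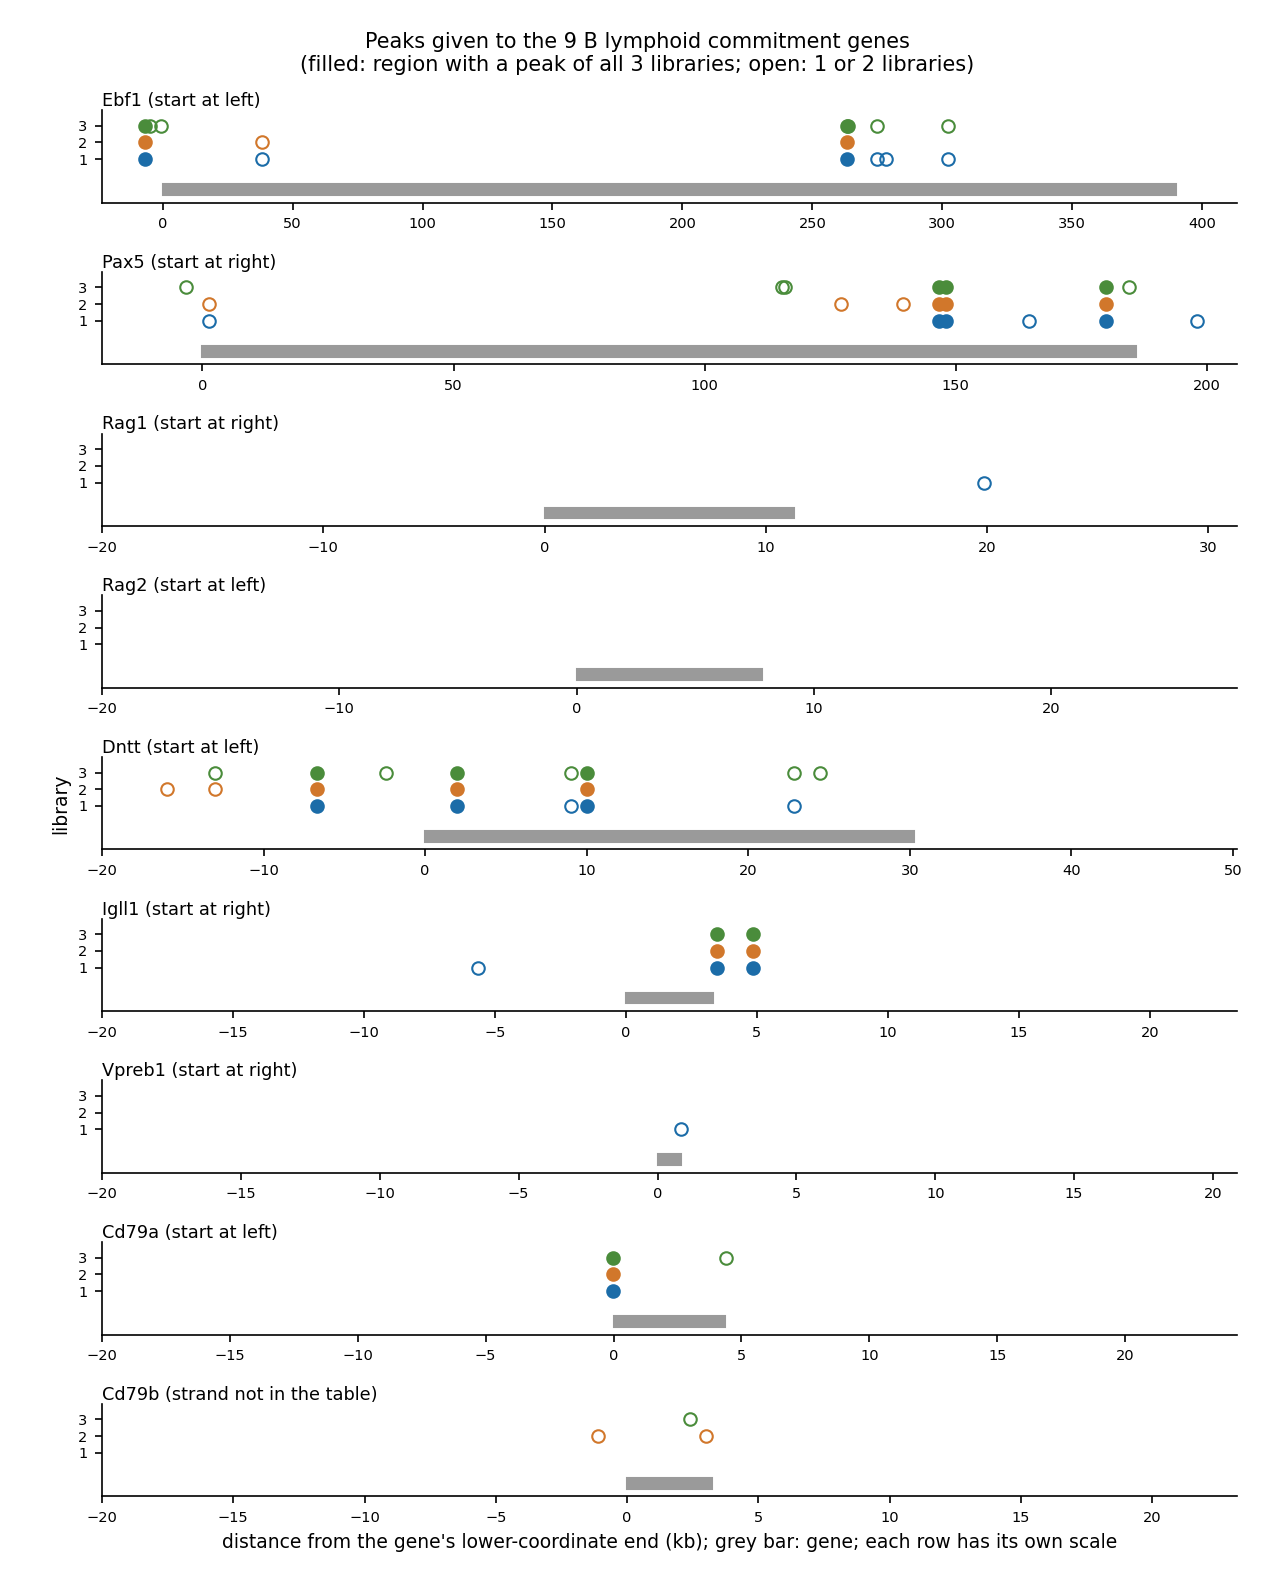
Peaks of libraries 1, 2 and 3 (rows of circles) given to each of the 9 genes, by summit distance in kb from the gene's lower-coordinate end. Filled circles are regions with a peak of all 3 libraries and open circles regions with 1 or 2. Grey bars are the genes, each row with its own scale. Ebf1, Pax5, Dntt, Igll1 and Cd79a have filled circles, Rag2 has no circle at all, and the only filled circles at an annotated start are those of Igll1 and Cd79a.

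Ebf1, which opens the B cell programme, had no reproducible region at either annotated start. The gene (chr11:44618100-45008096, plus strand) is 390.0 kb long. Its upstream region, chr11:44611080-44611684, had its summit 6806 bp before the start, with fold enrichments of 4.75, 5.27 and 5.21 in libraries 1, 2 and 3 (mean 5.08 ± 0.29, SD, n = 3). The pileups there were 10, 15 and 21 fragments, so the signal was even among libraries but thin. The other region, chr11:44881214-44881502, lay deep inside the gene, 263 kb downstream of the start. It had fold enrichments of 5.32, 4.90 and 5.12 (5.12 ± 0.21, SD, n = 3) on 10, 11 and 15 fragments. The 3 libraries placed its summit within 2 bp of each other, and at 289 bp it was the narrowest of the 11 regions. Elsewhere inside the gene stood 5 further peak regions of 1 or 2 libraries. Just upstream of the start only library 3 had peaks: a peak lay 841 bp before the start with a fold enrichment of 3.18 on 13 fragments, another 4818 bp before it with 3.75 on 17 fragments.

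Pax5, which seals B cell identity, carried its 3 regions inside the gene (chr4:44524748-44710694, minus strand) and none over its start. The region nearest the start, chr4:44704271-44704799, had its summit 6119 bp downstream, with fold enrichments of 6.37, 6.83 and 4.82 (6.01 ± 1.05, SD, n = 3) on 21, 32 and 25 fragments. A neighbouring pair of regions lay farther in. The stronger of the pair, chr4:44672325-44673191, 37.8 kb downstream, had 7.08, 5.59 and 4.57 (5.75 ± 1.26, SD, n = 3) on 24, 24 and 27 fragments. Library 1 was the highest there by fold enrichment, while the pileups hardly differed between libraries. The weaker, chr4:44671204-44671647, 39.3 kb downstream, had 3.65, 4.48 and 4.27 (4.14 ± 0.43, SD, n = 3) on 12, 19 and 24 fragments. Library 3 alone had a peak 1376 bp inside the start (3.70 on 20 fragments). Libraries 1 and 2 shared one 1336 bp inside the far end (5.32 and 5.40 on 10 and 12 fragments), which library 3 lacked. The gene table does not tell introns from exons, and 2 long noncoding RNA genes annotated in the same stretch, Gm12462 and 5730488B01Rik, have ends closer to the 3 reproducible regions than Pax5 has. The end of 5730488B01Rik lay 535 bp from the region nearest the Pax5 start.

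Dntt, the polymerase gene that diversifies immunoglobulin and T cell receptor joints, carried the strongest signal of the 9 genes. The gene (chr19:41029275-41059525, plus strand) had its strongest region upstream, at chr19:41022052-41023025, 6683 bp before the start. An end of the pseudogene Gm4269 lies closer to that summit, at 4018 bp. Fold enrichments were 9.31, 9.25 and 5.93 (8.16 ± 1.93, SD, n = 3), and pileups 43, 54 and 53 fragments. Library 3 was the low one by fold enrichment and not by pileup, with a local background of 8.10 fragments per base against 3.73 and 4.95 in libraries 1 and 2. The second region, chr19:41030973-41032026, 1979 bp inside the gene, was the most even of the 3, with 8.02, 7.90 and 7.39 (7.77 ± 0.34, SD, n = 3) on 33, 45 and 52 fragments. It was also the widest of the 11, at 1054 bp. The last, chr19:41039178-41039672, 10038 bp inside, had 6.24, 8.18 and 6.48 (6.97 ± 1.06, SD, n = 3) on 17, 31 and 31 fragments. The means of the 3 Dntt regions differed from each other by less than the larger SD of each pair. With 3 regions each, Dntt and Pax5 stood among the 10.6% of protein-coding genes that had at least 3. No library had a peak over the Dntt start, and 6 further regions of 1 or 2 libraries lay between 15.9 kb upstream and 24.4 kb downstream of it, with fold enrichments of 2.50 to 4.78.

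Rag1 and Rag2, the neighbouring recombinase genes, were nearly free of signal. Around Rag1 (chr2:101638252-101649532, minus strand) a single peak was found, in library 1 alone, 8557 bp upstream of the start, with a fold enrichment of 3.87 on 7 fragments. Rag2 (chr2:101624712-101632528, plus strand) had no peak of any library. The nearest reproducible region, chr2:101678140-101679051, was 28.6 kb from Rag1 and 45.6 kb from Rag2. It lay 88 bp from an end of Traf6, a signalling adaptor gene, and had 5.01, 6.36 and 4.80 (5.39 ± 0.85, SD, n = 3) on 10, 15 and 15 fragments.

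Igll1, which encodes the lambda5 part of the surrogate light chain, had a region over its start and another just upstream. The gene (chr16:16860671-16863985, minus strand) is 3.32 kb long. The start region, chr16:16863876-16864372, covered the whole promoter printed above, with its summit 167 bp upstream and summits of the 3 libraries within 16 bp. Fold enrichments there were 8.25, 4.71 and 4.54 (5.83 ± 2.10, SD, n = 3) on 28, 21 and 28 fragments. Library 1 stood well above the others by fold enrichment but not by fragments, over local backgrounds of 2.51, 3.67 and 5.39 fragments per base. At the upstream region, chr16:16865078-16865797, 1534 bp before the start, the order turned, with 5.67, 6.79 and 6.82 (6.43 ± 0.66, SD, n = 3) on 20, 34 and 47 fragments. Which of the Igll1 regions is the stronger therefore depends on the library.

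Vpreb1, which encodes the other part of the surrogate light chain and lies next to Igll1 on the same strand (chr16:16868401-16869255), had no reproducible region. Library 1 alone had a peak over its start, chr16:16869072-16869410, with the summit on the start itself and a fold enrichment of 4.30 on 15 fragments. Vpreb1 has a near-identical copy, Vpreb2, elsewhere on the chromosome. The placement of reads that match both copies is not known from the labels, so the values of either are uncertain. Vpreb2 had a region within 1 kb of an end (6.13 ± 1.49, SD, n = 3, on 10, 13 and 28 fragments), and so did the more distant relative Vpreb3 (5.54 ± 0.88, SD, n = 3). At the near end of the neighbour Top3b, a topoisomerase gene, stood the region chr16:16870618-16871311, 1.36 kb from Vpreb1. Its summit lay inside Top3b, 334 bp from the end, and the region was given to Top3b (5.99 ± 0.74, SD, n = 3).

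Cd79a, the Ig-alpha chain of the receptor, had the weakest of the 11 regions by fold enrichment. It lay over the start of the gene (chr7:24897497-24901858, plus strand), at chr7:24897310-24897685, with fold enrichments of 4.60, 3.33 and 3.78 (3.90 ± 0.64, SD, n = 3) on 18, 17 and 28 fragments. Its local background was 3.13, 4.40 and 6.67 fragments per base, above the lowest backgrounds of the libraries. The neighbouring gene Arhgef1 has a tall region 2.07 kb from Cd79a, with pileups of 105, 116 and 87 fragments, whose part in that background was not tested. By fold enrichment the Cd79a region stood at percentile 6.31 of all reproducible regions, and by pileup over the library background at percentile 36.9. At the far end library 3 alone had a peak, with a fold enrichment of 2.61 on 39 fragments. Cd79b, the Ig-beta chain (chr11:106311341-106314562), had peaks of single libraries that did not meet. Library 2 had one 216 bp inside the higher-coordinate end (3.26 on 15 fragments) and one 1124 bp outside the lower-coordinate end (3.61 on 17), and library 3 had one 824 bp inside the higher-coordinate end (3.81 on 21). The strand of Cd79b was not in the tables used, so these ends were not assigned to start or finish.

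**Figure D2:**
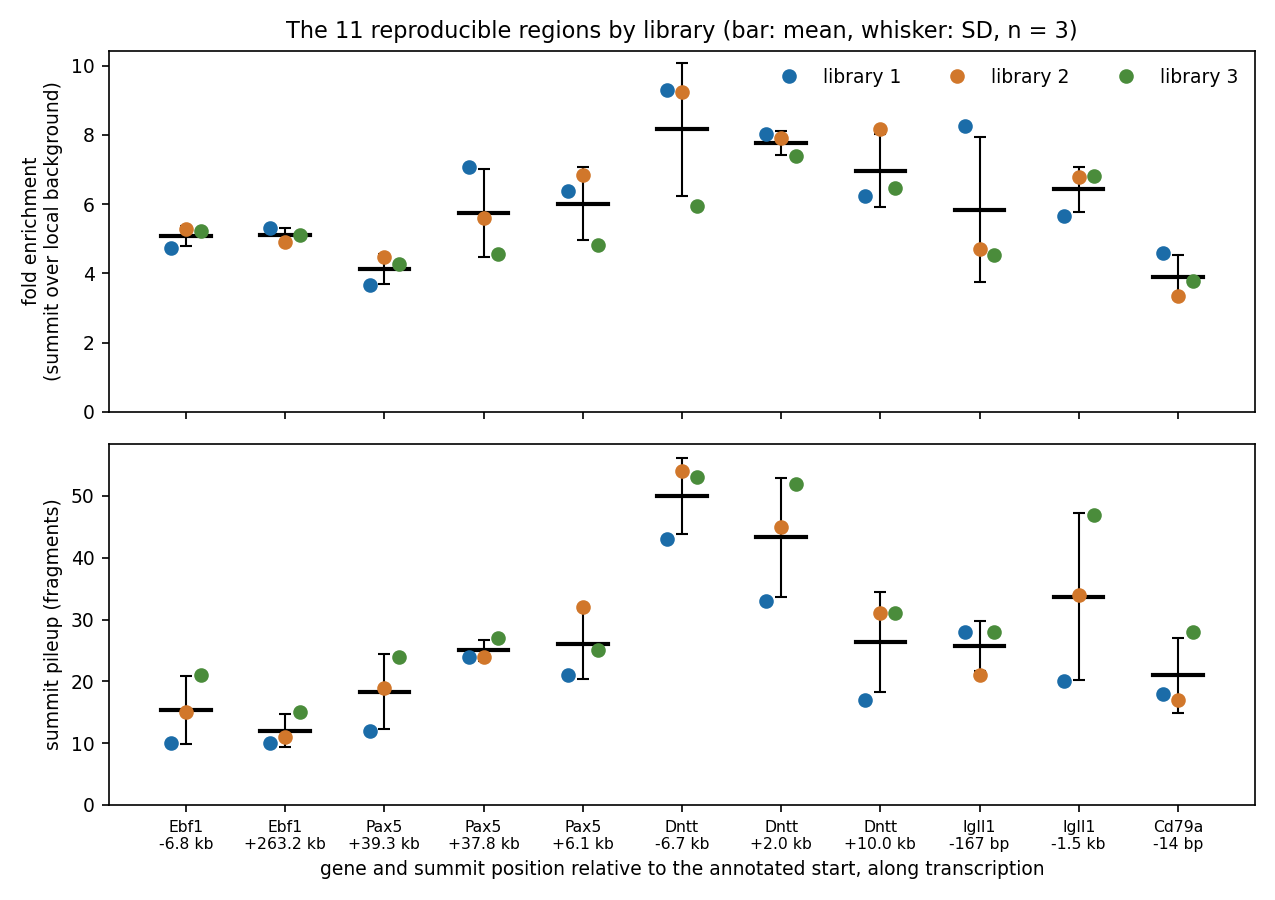
Fold enrichment (top) and summit pileup in fragments (bottom) of the 11 reproducible regions in libraries 1, 2 and 3, with the mean as a bar and the SD as a whisker (n = 3). The Dntt regions hold the 3 highest mean fold enrichments, 6.97 to 8.16, and Cd79a the lowest, 3.90. Library 1 is high by fold enrichment at the Igll1 start (8.25) but not by pileup.

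Set against the whole series, the member regions were of middling strength and narrow. Their mean fold enrichments ran from 3.90 to 8.16 with a median of 5.83, against a median of 6.25 for all 22987 reproducible regions, and 4 of 11 lay above that median. Regions away from ends had a median of 5.78 across the series and those at ends 7.20. By pileup over the library background, which does not depend on the local background, the member median was 18.0 against 17.7, and 7 of 11 lay above. The Dntt regions took percentiles 61.0 to 74.8 by fold enrichment and 50.9 to 82.0 by pileup. Both Ebf1 regions stood low on both scales, at percentiles 27.1 and 27.9 by fold enrichment and 14.9 and 4.79 by pileup. Median width was 529 bp (289 to 1054 bp) for member regions and 752 bp for all. The coefficient of variation between libraries had a median of 15.2% in member regions and 13.7% in all. Library 1 was the highest by fold enrichment at 6 of the 11, library 2 at 4 and library 3 at 1. With 11 regions these figures are descriptions, and no test was run.

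**Figure D3:**
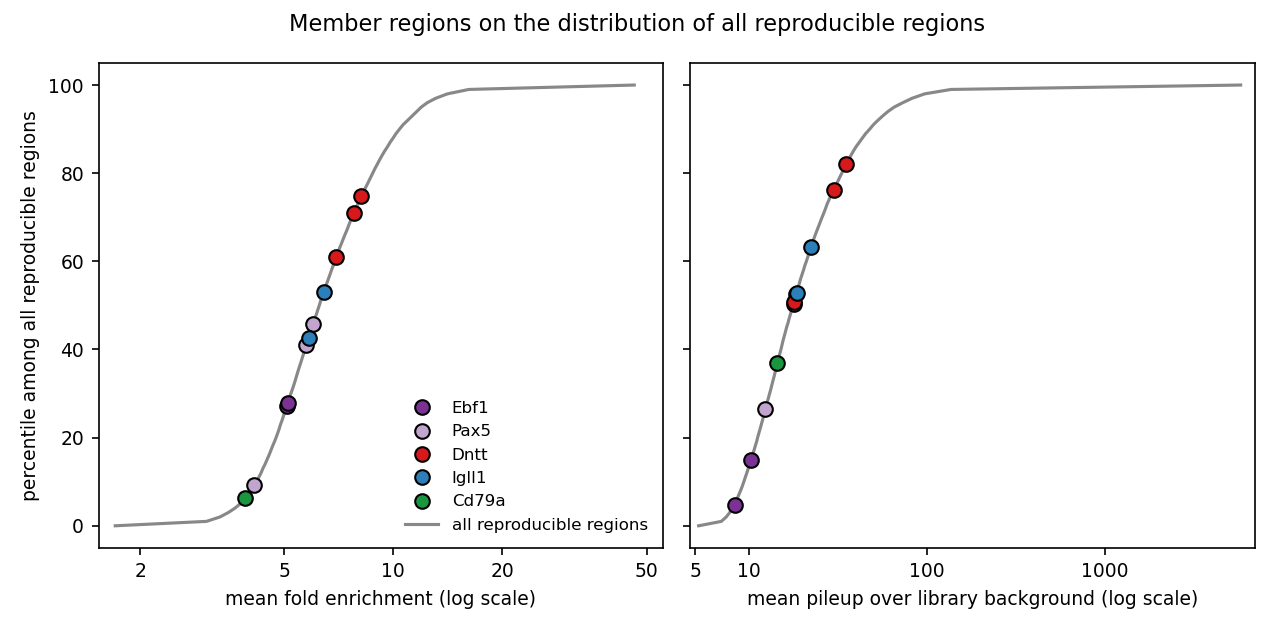
Percentile of each member region among all 22987 reproducible regions, against its mean fold enrichment (left) and its mean summit pileup over the library background (right), both on log axes. The grey line is the distribution of all reproducible regions. Dntt regions lie highest by fold enrichment, Ebf1 regions low on both axes, and the Cd79a region lies at percentile 6.31 by fold enrichment but at 36.9 by pileup.

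Gene size bears on these counts. The stretch in which a gene owns the nearest protein-coding end was 516 kb for Ebf1 and 289 kb for Pax5, but 49.0 kb for Dntt, 21.2 kb for Igll1, 8.77 kb for Cd79a and 3.80 kb for Vpreb1. Per 100 kb of that stretch, regions numbered 0.387 for Ebf1, 1.04 for Pax5, 6.12 for Dntt, 9.44 for Igll1 and 11.4 for Cd79a, the last from a single region. The stretches without a reproducible region were 28.6 kb at Rag1, 38.7 kb at Rag2, 8.53 kb at Cd79b and 3.80 kb at Vpreb1. Over all 9 genes there were 1.14 regions per 100 kb, close to 1.17 over all protein-coding genes. Regions of any number of libraries given to the members numbered 40, of which 27.5% were reproducible, against 39.0% of 56729 for all protein-coding genes. Of the rest, 7 had peaks of 2 libraries, with mean fold enrichments of 3.63 to 5.36, and 22 had a peak of 1 library, with 2.50 to 4.41.

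Within 100 kb of the 9 genes stood a further 33 reproducible regions that were given to neighbours, and in 8 of the 9 windows the strongest region was one of these, Dntt being the exception. At Pax5 it was chr4:44755997-44757220, 45.3 kb away and 141 bp from an end of Zcchc7, a zinc finger protein gene, with 9.78, 10.5 and 11.4 (10.6 ± 0.80, SD, n = 3). At Ebf1 it belonged to Rnf145, a ubiquitin ligase gene (6.39 ± 1.10, 97.6 kb away), at Rag1 to Prr5l (6.07 ± 1.16, 83.0 kb away) and at Rag2 to the Traf6 region described above. Igll1 and Vpreb1 shared theirs, at an end of the phosphatase gene Ppm1f (8.65 ± 0.94). At Cd79a the strongest was 373 bp from an end of the ribosomal protein gene Rps19 (9.30 ± 1.32), and at Cd79b 131 bp from an end of Ccdc47 (13.1 ± 0.89, 94.0 kb away). In the Dntt window all 3 other regions were given to Blnk, itself a B cell gene that encodes the linker downstream of the pre-B receptor, the strongest with 7.54 ± 0.90 (SD, n = 3 throughout). Neighbours held 13 of the 14 regions in the Cd79a window and all 8 at Cd79b, but 1 of 4 at Pax5. At the edge of the 100 kb rule, the regions just inside lay 97.6 kb from Ebf1 and 94.0 kb from Cd79b, and those just outside lay 100.001 kb from Rag2, the Prr5l region, and 103.535 kb from Cd79a (5.47 ± 0.35).

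Genes that act before or beside the members had regions in larger shares, though no difference between lists was tested. Across all protein-coding genes the shares were 53.6% with a region and 45.2% with an occupied end. Of 25 early B lineage regulators, 23 had a reproducible region and 20 an occupied end, against 5 and 2 of the 9 commitment genes. The strongest were Pou2af1, an octamer coactivator gene (14.1 ± 2.59), Bcl11a itself (12.8 ± 1.77), Tcf3, which encodes the E2A proteins (12.7 ± 2.06), Id2, an inhibitor of E proteins (11.8 ± 1.91), and the cytokine receptor gene Flt3 (11.7 ± 1.47), each with n = 3. Ikzf3, which encodes Aiolos, and Il7r, the receptor gene for interleukin 7, had no region. The median over genes of the strongest region was 9.43 in this list, 6.01 in the members and 7.56 over all genes with a region. Their median stretch was 126 kb, against 28.6 kb in the members and 46.4 kb over all genes, so the lists also differ in the length of DNA searched.

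Partners of the members in signalling and joining also had larger shares. Over all protein-coding genes, 53.6% had a region and 45.2% an occupied end. The median stretch was 67.9 kb in the signalling and surface genes and 103 kb in the joining genes, against 28.6 kb in the members. Of 20 genes of pre-B receptor signalling and the B cell surface, 18 had a region and 11 an occupied end. Lyn, a kinase that phosphorylates Cd79a and Cd79b, had 11.7 ± 1.72 at its strongest region, the phosphatase gene Ptpn6 9.73 ± 1.30, the sialophorin gene Spn 9.62 ± 1.85 and the phospholipase gene Plcg2 9.17 ± 0.85 (SD, n = 3). A single region given to Cr2, 64815 bp from its end, had 40.3 ± 2.85 on 821, 954 and 1537 fragments, far above the next gene of the list. Among all reproducible regions the 99th percentile of fold enrichment was 16.2 and the highest value 46.3. Whether the height of the Cr2 region belongs to the tagged protein was not tested. Ms4a1, which encodes CD20, and Cd38 had no region. Of 12 genes of V(D)J joining and repair, 10 had a region and 9 an occupied end. They were led by Prkdc, a DNA repair kinase gene (15.8 ± 2.80), Hmgb2, a DNA-bending cofactor of the recombinase (15.4 ± 2.97), the kinase gene Atm (13.0 ± 1.40), the polymerase gene Polm, a relative of Dntt (12.5 ± 2.02), and Nhej1 (11.9 ± 1.44). Xrcc5 and Xrcc6, which encode the Ku proteins, had none. Most of these joining genes are used by all cells.

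By share of genes with an occupied end, the lists from other lineages lay nearer to the members. The shares of all protein-coding genes were 53.6% with a region and 45.2% with an occupied end. Of 10 T cell receptor genes, 5 had a region and 3 an occupied end, led by Cd3d (11.8 ± 1.93), Lat (8.43 ± 0.62), Zap70 (6.20 ± 0.97), Cd247 (6.20 ± 0.85) and Lck (4.67 ± 0.82), while Cd3e, Cd3g, Cd4, Cd8a and Ptcra had none. Of 10 neutrophil granule genes, 3 had a region, all with an occupied end: Ltf (9.92 ± 0.58), Mpo (6.94 ± 1.20) and Prtn3 (5.45 ± 0.71). Elane, Ctsg, Camp, Ngp and Lcn2 were among the 7 without. Per 100 kb of the stretch searched the order was another: 1.14 regions in the members, 1.38 in the joining genes, 1.74 in the T cell receptor genes, 2.76 in the early B regulators, 3.01 in the pre-B receptor and surface genes and 3.19 in the neutrophil granule genes. The value over all protein-coding genes was 1.17 per 100 kb. All lists rest on the same 3 libraries.

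**Figure D4:**
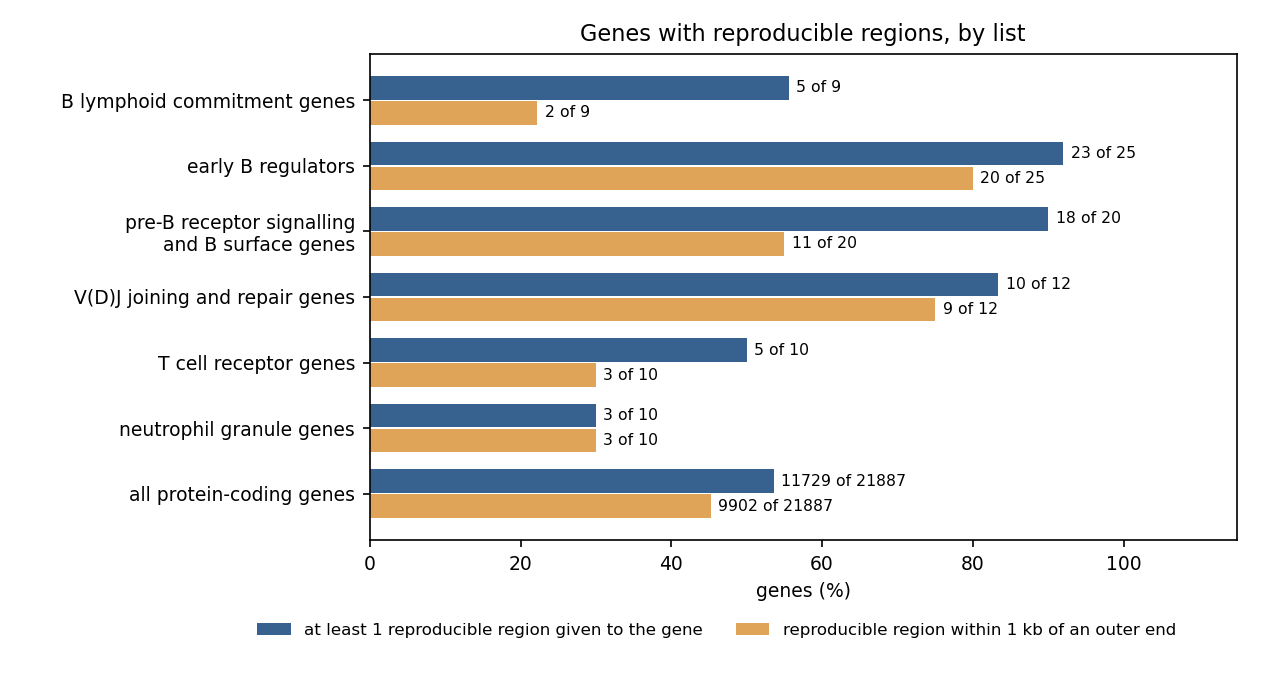
Percent of genes with at least 1 reproducible region (dark bars) and with a reproducible region within 1 kb of an outer end (light bars), with counts at the bars. The 9 B lymphoid commitment genes are at the top, with 5 and 2 genes, and all 21887 protein-coding genes at the bottom, with 53.6% and 45.2%. Early B regulators have the highest bars, 23 and 20 of 25.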

How the data were processed

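Per the submitters' processing notes, the tools were Bowtie2, SAMtools and MACS2 and the build was mm10. Their versions, duplicate removal and the treatment of reads with several matches were not given in the sources used here. Each library has 1 peak list deposited by the authors. Its fold enrichment is a ratio of summit height to local background in the deposited lists, and its p-value and q-value stand there as −log10. The lowest −log10 q was 1.30 to 1.31, a q of 0.05.

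Summit pileups were solved from fold enrichment and p (whole within 0.05 fragments for 100% of peaks), and divided by each library's lowest background. Joining used peaks of the autosomes and sex chromosomes (22 others left out) at 1 bp of overlap, and a region takes each library's strongest peak. Genes and promoters came from RefSeq tables of GRCm38.p6, without exons. With 1 group and no control library, values are means ± SD over 3 libraries and no test was run. The members and lists were chosen with earlier results of these data known. Named are all 9 members, each window's strongest neighbour region, and in each list the 5 strongest genes and up to 5 without a region. The joining steps were checked on simulated data. Python 3.11.15, numpy 2.4.6 and pandas 2.3.3 were used. Alternatives were other peak thresholds, joining rules, gene sets, windows and left-out libraries. Some cell type markers are not reported here.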

Additional observations from a re-analysis of the deposited data

How the results depend on the processing

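The 5 genes with a region and the 2 occupied ends (Igll1 and Cd79a) kept their counts with 50% reciprocal overlap, against 47.5% and 38.2% of protein-coding genes. In at least 2 libraries the counts were also 5 and 2, against 61.6% and 51.6%. When any library was left out they were 5 and 2 each time, against 55.6% to 57.6% and 46.2% to 48.8%. Both of these settings ask for fewer libraries than the main rule, so they could add genes but hardly remove them. The number of regions, 11 as reported, was 12 to 14 with a library left out, 18 in at least 2 libraries, 7 with −log10 q of at least 5, 2 with the 10000 strongest peaks of each library, 7 with the nearest end among all RefSeq genes and 44 with the nearest end among the 9 members. Genes with a region numbered 3 with the stricter q (Dntt, Igll1 and Pax5, against 45.4% of protein-coding genes), 1 with the 10000 strongest peaks (Dntt, against 24.9%) and 8 with the nearest end among the members. Occupied ends numbered 1 with the stricter q (Igll1, against 38.1%), 0 with the 10000 strongest peaks (against 20.6%) and 4 with a 3 kb end window (Vpreb1 and Dntt added, against 50.8%). The median of the members' strongest fold enrichment, 6.01 as reported, was 5.83 to 6.48 with a library left out, 8.16 with the 10000 strongest peaks, which leave Dntt alone, and 8.41 with the nearest end among the members, which takes in regions of neighbours. With all RefSeq genes, Pax5 lost its 3 regions to noncoding RNA genes and Dntt its strongest region to a pseudogene. Genes that lost all their regions gave no value of their strongest region. These were Cd79a and Ebf1 with the stricter q, every member but Dntt with the 10000 strongest peaks, and Pax5 with all RefSeq genes. Of 48 values of single genes that kept a region under an alternative, 44 stayed within 1 SD. Where the same region stayed the strongest, its value could not leave 1 SD, so this count says little about stability. The 4 that moved did so with the nearest end among the members.

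Depth limits what a missing peak shows. Ebf1 regions rest on 10 to 21 fragments, so a region of like size can be missed in a library. No control library bears on background, and peaks of Vpreb1, Igll1 and other members of multicopy families depend on how reads with several matches were placed.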

Other observations

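The immunoglobulin genes that the Rag recombinase cuts are not protein-coding entries in the gene table, so their loci were searched apart, after the values of the members had been seen. The heavy chain locus Igh (chr12:113258768-116009954) is 2.75 Mb long, and all protein-coding genes had 1.17 reproducible regions per 100 kb of their stretches. Igh held 45 reproducible regions, with 60, 65 and 73 peaks in libraries 1, 2 and 3. The kappa locus Igk (chr6:67555636-70726754), of greater length, held none, on 7, 1 and 3 peaks. The lambda locus Igl (chr16:19026858-19260844) had no peak of any library.

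Most of the Igh regions sat on variable segments, the pieces from which the antigen-binding part is joined. With a limit of 250 bp, also set after seeing the data, 35 of the 45 summits lay at an end of a V segment, with mean fold enrichments of 4.33 to 10.1 and a median of 6.81. They marked 35 of 184 annotated V segments, or 19.0%. By comparison, 40.7% of protein-coding genes had a reproducible region within 250 bp of an end, counted from the region's edge and not its summit. Of the 35 marked segments, 28 belonged to the 92 of the Ighv1 family and 5 to the 16 of Ighv8. None of 11 Ighv2 and 21 Ighv5 segments had a region. The strongest of them was at Ighv1-58 (chr12:115312000-115312805), with 9.39, 9.04 and 11.8 in libraries 1, 2 and 3 (10.1 ± 1.50, SD, n = 3) on 22, 24 and 40 fragments. None of 162 Igk V segments had one. Segments of a family are similar in sequence, and the placement of reads with several matches is not known from the labels. Its part in the family pattern was not tested.

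The strongest region of the locus lay elsewhere, at chr12:113424307-113425510, 2025 bp from Ighm, the gene segment of the first constant region used. It had 14.6, 13.2 and 12.5 (13.5 ± 1.08, SD, n = 3) on 293, 358 and 342 fragments, more fragments in every library than any region of the 9 commitment genes. No untagged library was analysed here, so whether this height belongs to the tagged protein was not tested.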
